A study of Mus musculus with 11 samples.

Results

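AP-1 and Ets immediate early factors are transcription factors that growth signals switch on or activate. The genes described here are 10 such factors of the mouse: Fos, Fosl1, Fosl2, Jun, Junb, Jund, Atf3, Ets1, Ets2 and Egr1. They were named by symbol, and all 10 were found among 21631 protein-coding genes of chromosomes 1 to 19 and X. A peak was assigned to a gene when it touched the gene or lay within 5 kb of either end (build mm10), and peaks up to 25 kb away were listed separately.

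The peaks come from CUT&RUN, an assay that cuts out and sequences the DNA next to an antibody-bound protein in permeabilised cells. There were 11 libraries from 2 untreated mouse tumour lines, each from a different mouse, grown on Matrigel in neural medium with bFGF and EGF. Both lines carry an HA-tagged fusion, taken from the series title as ZFTA-RELA, so no line without the fusion is included. In M00002 the targets were HA, p65 and H3K27ac with antibodies ac4729 and ac647, with IgG as the control. In M00001 they were HA, p300, Cbp and Rpb1 with antibodies labelled S2 and S5, with IgG as the control. The Cbp, p300, S2 and S5 titles of M00001 share a code that the HA and IgG titles do not have.

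ZFTA-RELA joins a zinc finger protein to RELA, which is p65, an NF-kappaB subunit, and is the main driver of supratentorial ependymoma. The p65 antibody can therefore detect p65 itself or, if its epitope is kept, the fusion. H3K27ac marks active promoters and enhancers, and p300 and Cbp are acetyltransferases that deposit it. Rpb1 is the large subunit of RNA polymerase II, and its tail is phosphorylated on serine 5 near starts and on serine 2 during elongation. AP-1 is a dimer of Fos and Jun family proteins, Ets factors bind a GGAA core, and Egr1 binds GC-rich sites. Growth factors act on these genes through MAP kinases.

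The lists held from 1806 peaks (IgG, M00001) to 30680 peaks (HA, M00002), and read depth is unknown. HA of M00001 held 9365 peaks, so its list is shorter than that of M00002. The median width of HA peaks was 208 bp in M00001 and 116 bp in M00002, and whether both lists were called alike is unknown. With 1 library per target and line there are no replicates, so nothing below was tested and every value describes these libraries. Fold enrichment is the authors' value at the summit. It is compared within a list through its percentile, where 100 is the strongest peak, and folds of different lists are given side by side without a comparison. As a check of the cells, H3K27ac of both antibodies lay at 5 of 7 neural progenitor markers, without Pax6 and Fabp7, 4 of 5 endothelial, 2 of 6 microglial and 2 of 5 mature neuron markers. The share over all genes was 27.1%. In M00001 S2 lay at 2 of 7 neural progenitor, 1 of 5 endothelial, 2 of 6 microglial and 2 of 5 mature neuron markers, against 56.1% of all genes. S5 lay at 3 of 7, 0 of 5, 1 of 6 and 2 of 5 of the same lists, against 33.6%. The part of other cell types in the results was not tested.

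HA was found at 9 of the 10 genes in M00002, all but Ets2, while 49.8% of all protein-coding genes had it. In M00001 HA was found at 6 of 10, against 22.5% of all genes. These were Fosl1, Jun, Junb, Jund, Ets1 and Egr1, and each of them had HA in both lines (6 of 10 against 19.9%) with at least 1 pair of overlapping peaks (6 of 10 against 15.5%). IgG lay at 2 of 10 in M00002, Fos and Fosl1, against 11.2% of all genes. In M00001 IgG lay at 0 of 10, against 3.49%. The 2 IgG peaks had folds of 3.34 each and −log10 q of 0.282 each.

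Of the 134 peaks of the 9 other lists at these genes, 0 overlapped IgG of either line, which allows a share of up to 2.24%. The limit covers counting error only and takes the peaks as independent. Peaks of several lists lie over the same sites, so the limit is too narrow. Out to 25 kb the count was 0 of 235 peaks, which allows up to 1.28% on the same terms. Over the whole lists the share that overlapped IgG of the same line was also low, from 1.76% (S2) to 6.38% (Cbp). The difference from these shares was not tested.

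Polymerase was the target found most widely. S2 and S5 each lay at 10 of 10 genes, against 56.1% and 33.6% of all genes. At Fosl1 their only peaks lay outside the gene, over the start of the neighbouring Ccdc85b. p65 was found at 8 of 10, without Fos and Ets2, against 33.1%. H3K27ac lay at 8 of 10 with ac4729, against 50.6%, and at 7 of 10 with ac647, against 28.4%. Both antibodies found the same 7, missing Jund, Atf3 and Ets2. p300 lay at 6 of 10 genes, against 15.4%, and Cbp at 3 of 10, against 12.7%. Many of these peaks are weak: with −log10 q of at least 5, S5 was found at 4 genes (11% of all genes), S2 at 5 (41.5%), p300 at 2 (2.50%) and Cbp at 0 (1.18%). At that limit HA was found at 8 genes in M00002 (26.9%) and at 6 in M00001 (9.32%).

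**Figure D1:**
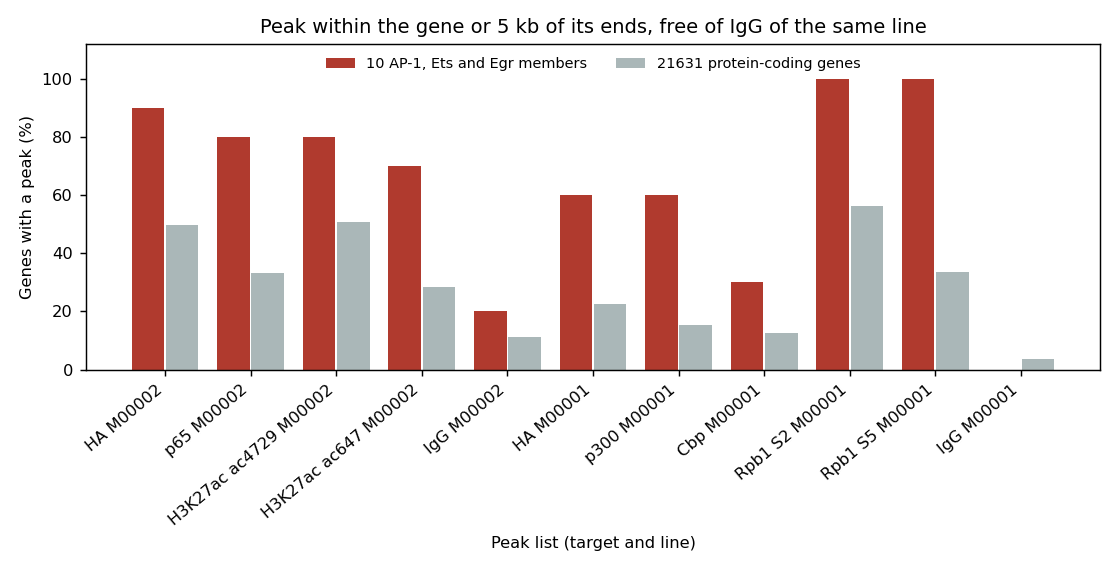
Bars give the share of genes, in percent, with a peak inside the gene or within 5 kb of its ends, for the 10 named genes (red) and all 21631 protein-coding genes (grey), by peak list; peaks that overlap IgG of the same line were left out. S2 and S5 reach 10 of 10 named genes, HA of M00002 9 of 10 and HA of M00001 6 of 10, and IgG 2 and 0.

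A longer gene has more room for a peak. Ets1 spans 121580 bp and the other 9 genes span 1840 bp (Junb) to 21369 bp (Fosl2). Among genes of up to 25 kb HA of M00002 lay at 8 of these 9, against 39.4%, and HA of M00001 at 5 of 9, against 17.2%. HA lay in both lines at 5 of 9, against 15.0% of 13010 genes, with a shared site at the same count, against 13.0%. p65 lay at 7 of 9, against 25.5%, p300 at 5 of 9, against 10.5%, and Cbp at 2 of 9, against 7.76%. S5 and S2 lay at 9 of 9, against 27.4% and 48.4%, and H3K27ac of both antibodies at 6 of 9, against 19.6%.

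**Figure D2:**
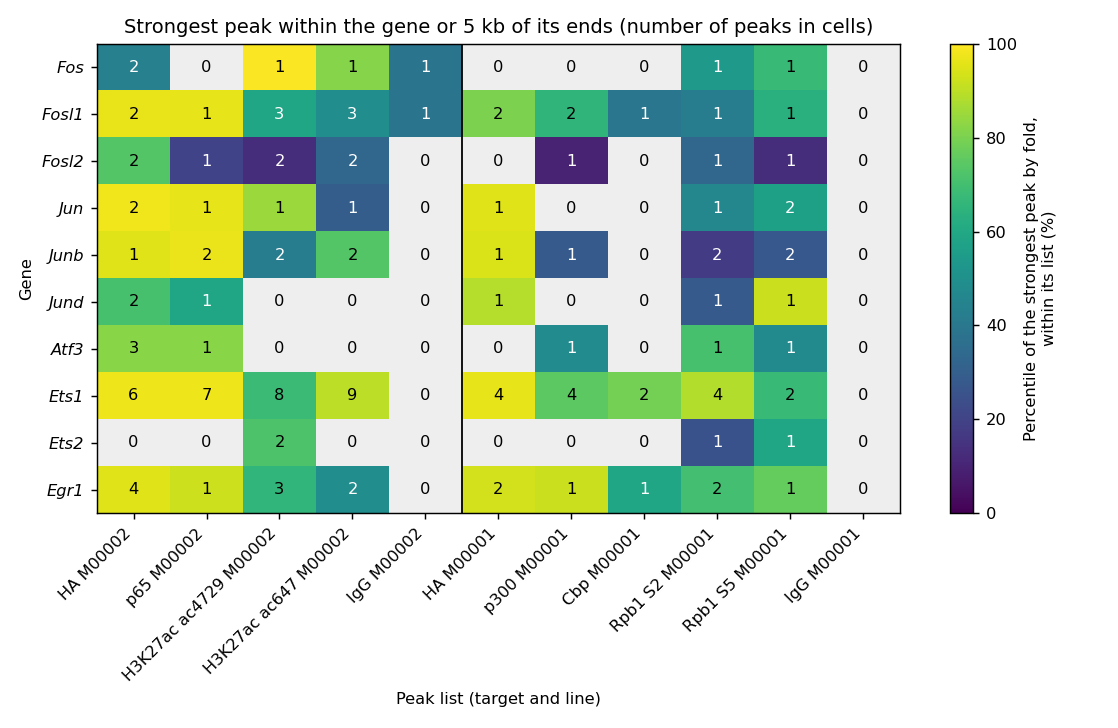
Rows are the 10 genes and columns the 11 peak lists, M00002 left of the line and M00001 right of it. Colour gives the percentile by fold of the strongest peak within 5 kb, ranked within its own list, numbers give peaks, and grey cells hold 0 peaks; HA of Jun, Ets1, Fosl1, Egr1 and Junb stands above the 95th percentile in M00002.

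The 250 bases before the start site are shown for Jun, Atf3 and Fos, because an HA peak of M00002 lay in this stretch or in the first 50 bases of the gene, and for Junb, where no peak of any list lay. Sequences are from RefSeq, GRCm38.p6, the assembly behind mm10, 5′ to 3′ on the strand of the gene. Capitals mark motif matches. The positions are chr4:95052223-95052472 (minus) for Jun, chr1:191183334-191183583 (minus) for Atf3, chr12:85473640-85473889 (plus) for Fos and chr8:84978749-84978998 (minus) for Junb.
Jun: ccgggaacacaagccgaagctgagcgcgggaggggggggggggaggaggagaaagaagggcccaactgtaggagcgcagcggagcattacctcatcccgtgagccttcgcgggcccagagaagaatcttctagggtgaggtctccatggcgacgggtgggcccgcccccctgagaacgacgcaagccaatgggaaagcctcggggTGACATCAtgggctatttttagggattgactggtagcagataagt
Atf3: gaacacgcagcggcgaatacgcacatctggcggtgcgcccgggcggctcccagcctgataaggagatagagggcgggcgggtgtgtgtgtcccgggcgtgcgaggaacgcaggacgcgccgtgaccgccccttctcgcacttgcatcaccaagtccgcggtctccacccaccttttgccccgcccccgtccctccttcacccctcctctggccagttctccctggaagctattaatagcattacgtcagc
Fos: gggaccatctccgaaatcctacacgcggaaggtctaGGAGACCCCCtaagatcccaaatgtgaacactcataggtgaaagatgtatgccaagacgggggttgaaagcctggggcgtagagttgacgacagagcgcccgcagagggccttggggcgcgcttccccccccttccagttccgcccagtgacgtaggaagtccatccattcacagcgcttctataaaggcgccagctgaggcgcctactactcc
Junb: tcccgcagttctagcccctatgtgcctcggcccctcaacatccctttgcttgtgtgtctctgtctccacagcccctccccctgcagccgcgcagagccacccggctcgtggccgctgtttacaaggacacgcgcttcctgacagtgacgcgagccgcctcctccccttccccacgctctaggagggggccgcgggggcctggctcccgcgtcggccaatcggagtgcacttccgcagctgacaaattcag

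Promoters of 7 of the 10 genes were in the table, without Fosl1, Ets1 and Egr1. Both strands were searched for the AP-1 site TGANTCA, the CRE-like site TGACNTCA and the longer Ets site CCGGAA. The Egr site GCGNGGGCG, the kappaB site and the CArG box were also searched. AP-1 and CRE-like sites differ by a spacer base, and matches were allowed to overlap. Jun had 1 CRE-like match, TGACATCA, 45 to 38 bases before its start, and 7.13% of 17274 promoters of that length held one. Its centre lay 110 bp from the HA summit of M00002, and the HA peak of M00001 did not reach it. Fos had 1 kappaB match on the opposite strand, 214 to 205 bases before its start, and Fosl2 had 2 overlapping ones; 7.66% of promoters held one. Fosl2 also had 1 Egr match, at 6.33% of promoters. No HA or p65 peak reached the matches of Fos and Fosl2. The match of Fos lay at 85473676 to 85473685, before the HA peak of M00002 that began at 85473802. AP-1, Ets and CArG letters were in 0 of 7 of these windows, and in 6.27%, 15.4% and 1.41% of all.

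Over the promoter with its first 50 bases of transcript, HA of M00002 had a peak at 3 of 7 genes, Jun, Atf3 and Fos, against 17.7% of 17274 promoters. HA of M00001 had one at 1 of 7, Jun, against 7.46%. S5 covered 4 of 7 (Fos, Jun, Atf3 and Ets2), against 18.2%, and S2 the same 4, against 37.7%. p65 covered 2 of 7 (Jun and Atf3), against 10.2%, and p300 1 of 7 (Atf3), against 5.07%. H3K27ac covered 2 of 7 with ac4729 (Fos and Ets2), against 23.7%, and 1 of 7 with ac647 (Fos), against 6.71%. Cbp covered 0 of 7, against 2.08%, and IgG 0 of 7 in M00002 and in M00001, against 0.278% and 0.0695%.

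Among the Fos family, Fos itself (chromosome 12, 85473890 to 85477274, plus strand), the inducible partner of Jun, combined strong acetylation with HA of middle rank. H3K27ac over its start had a fold of 9.60 with ac4729, at the 99.3rd percentile of that list. With ac647 it had 5.68, at the 81.7th, in a peak that ended 92 bp before the start. Polymerase covered the start, with folds of 4.68 for S5 in a peak of 695 bp and 3.99 for S2. HA of M00002 had a fold of 4.29 there (85473802 to 85474040), at the 43.6th percentile, and HA of M00001 had 0 peaks out to 25 kb. The start of Fos thus stood high for H3K27ac and slightly below the middle of the list for HA of M00002, whose median fold was 4.49.

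Farther from Fos the strongest HA peak of M00002 lay 21737 bp before the gene, with a fold of 11.4 and a p65 peak of fold 6.42 over it. A site 18324 bp away, where a Cbp peak had its nearest edge, carried p300, Cbp, S2, S5, ac4729 and HA of M00002, with an S5 fold of 7.99. p65 was missing within 5 kb of Fos. The IgG peak of M00002 lay 2970 bp past the other end of Fos.

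Fosl1 (chromosome 19, 5447698 to 5455938), which encodes Fra-1, had 9 of the 9 antibody lists other than IgG within 5 kb. The densest site lay outside the gene, inside the neighbouring Ccdc85b, and also within 5 kb of Fibp. HA there had a fold of 16.5 in M00002 (5456791 to 5457060), the 96.5th percentile, and 6.97 in M00001, the 80.2nd. Its summit lay 951 bp from the end of Fosl1 in M00002 and 989 bp from it in M00001. p65 reached 14.8 at that site. A weaker HA pair next to it, with 5.24 in M00002 and 3.66 in M00001, overlapped Cbp (3.39) and S5 (4.62). p300 (4.26) and S2 (3.64) overlapped both HA pairs. Their summits lay 1613 bp and 1553 bp from the end of Fosl1, near the M00002 summit of the weaker pair at 1608 bp. Ccdc85b is on the minus strand and starts at 5457563, under the only S2 and S5 peaks within 5 kb of Fosl1. A peak there cannot be ascribed to one of the 3 genes. Inside Fosl1 lay H3K27ac of both antibodies with folds of 3.85 and 3.64, a p300 peak with −log10 q of 0.676 and the IgG peak, and no HA. HA was shared again 17426 bp and 22533 bp below the gene, with M00002 folds of 9.43 and 12.8 and M00001 folds of 5.57 and 5.21.

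Fosl2 (chromosome 5, 32136472 to 32157840, plus strand), which encodes Fra-2, had modest peaks. The HA peaks of M00002 before its start had folds of 6.94 and 4.42, and HA of M00001 had 0 out to 25 kb. p65 had a fold of 3.58 with −log10 q of 0.979, and p300 3.02 with 0.776. An S2 peak of 826 bp with a fold of 3.40 ended 304 bp before the start, and S5 had 3.29. H3K27ac inside the gene reached 3.81 with ac647 and 3.01 with ac4729. Beyond 5 kb from Fosl2 no further peak of any list lay within 25 kb.

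Jun (chromosome 4, 95049036 to 95052222, minus strand) encodes the main AP-1 partner of Fos and is itself a target of AP-1. One site before its start carried HA of both lines, p65 and polymerase. HA had a fold of 18.7 in M00002 (95052226 to 95052573), the 97.8th percentile, and 11.4 in M00001 (95052285 to 95052492), the 95.1st. The summits of both HA peaks fell on the same base, 151 bp before the start, and that of p65, with a fold of 14.9, lay 155 bp before it. S5 had a fold of 4.23 and S2 3.74 at the same place. H3K27ac did not overlap the HA peak of Jun but began next to it, on the far side from the gene, with folds of 5.33 for ac4729 and 3.70 for ac647. p300 and Cbp had 0 peaks within 25 kb. The start of Junos, a long noncoding RNA gene on the other strand, lies under the same HA peak, so the site cannot be ascribed to one of them.

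Junb (chromosome 8, 84976909 to 84978748, minus strand), an AP-1 subunit that can restrain Jun, had its strongest peaks at the end opposite its start. HA had a fold of 15.0 in M00002 (84976329 to 84976725), the 95.1st percentile, and 11 in M00001 (84976306 to 84976701), the 94.5th. Both summits lay 353 bp beyond the downstream end of Junb, again on the same base. p65 had a fold of 16.2, its 97.2nd percentile. p300 with 3.34, S5 with 3.49 and S2 with 2.95 lay over the HA peaks, and H3K27ac of both antibodies (5.08 for ac647, 3.79 for ac4729) overlapped them on the side away from the gene. Its promoter, shown above, had 0 peaks. Farther before the start lay weak peaks of S2 (2.48) and S5 (2.78), 1020 bp away, of p65 (3.80), 1418 bp away, and of ac647 (2.99), 1913 bp away. The gap between Junb and Prdx2, which encodes a peroxide-reducing enzyme, holds this site, and both genes end towards it. A further HA site shared by the lines lay before the start of Junb, 6871 bp away, with folds of 7.56 and 8.71 for the peaks of M00002 and 4.58 for that of M00001.

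Jund (chromosome 8, 70697739 to 70700616, plus strand), the Jun family member that is expressed most constantly in many tissues, had 1 shared site inside the gene. HA had a fold of 6.04 in M00002 (70698774 to 70699146), the 67.2nd percentile, and 8.72 in M00001 (70698839 to 70699175), the 88.7th. The summits stood 184 bp apart. S5 reached 6.92 there, the 92.0th percentile of its list, with p65 at 5.50 and S2 at 3.21. H3K27ac of either antibody was missing within 5 kb, and its nearest peaks lay 23672 bp (ac647) and 23697 bp (ac4729) away. A second HA peak of M00002, with a fold of 6.64, lay 2053 bp before the start. The shared site is also within 5 kb of Iqcn. The outermost RefSeq end was taken as the start, 1086 bp from the HA summit of M00002; other transcript starts were not used here.

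**Figure D3:**
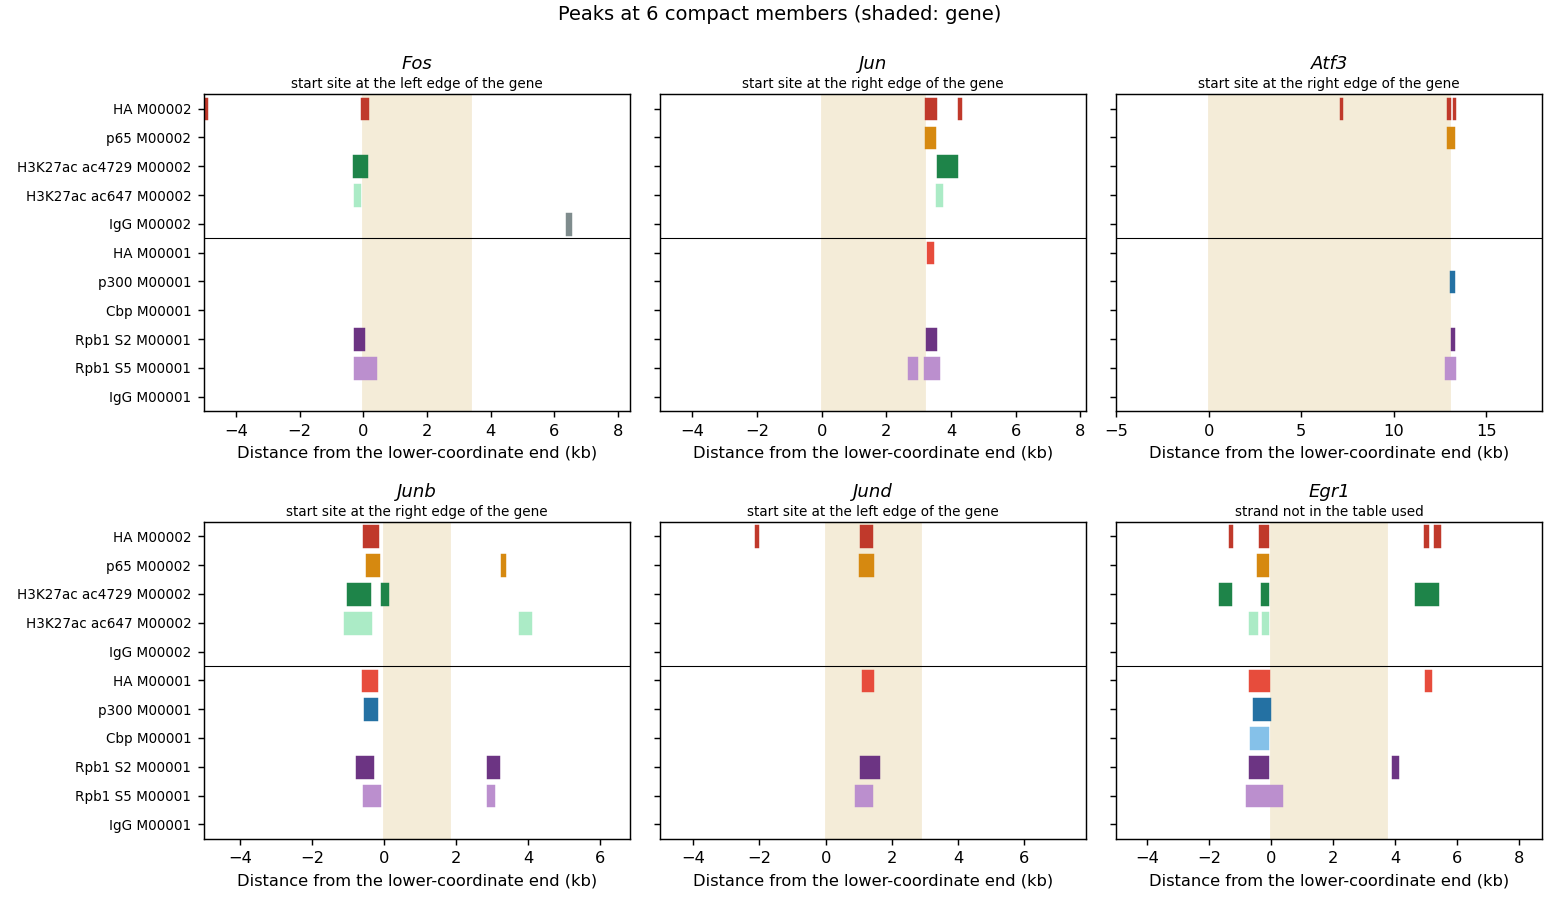
Each panel shows 1 gene (shaded) with 5 kb on both sides, distance in kb from the end with the lower coordinate, and a bar for each peak of the 11 lists. HA of both lines lies at the start of Jun, beyond the downstream end of Junb, inside Jund and just below the lower end of Egr1, while Atf3 and Fos have HA of M00002 alone. The HA list of M00001 is the shorter one, with 9365 peaks against 30680.

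Atf3 (chromosome 1, 191170296 to 191183333, minus strand), a stress-induced factor that pairs with Jun proteins, had HA in M00002 at its start. The HA fold was 8.84 (191183196 to 191183326), the 82.3rd percentile, with the summit 83 bp inside the gene. p65 had 8.58 with a summit 2 bp from that of HA. This HA peak ended short of the bases of Atf3 shown above. The HA peak over those bases (191183526 to 191183606) had a fold of 3.89 with −log10 q of 1.58. In M00001 S5 covered the start with a fold of 4.04, S2 with 4.86 ended 42 bp before it, and p300 with 3.75 ended 28 bp before it. HA of M00001 and H3K27ac of both antibodies had 0 peaks out to 25 kb. Of the 10 genes only Atf3 had no H3K27ac peak of either antibody out to 25 kb.

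Ets1 (chromosome 9, 32636241 to 32757820) encodes a founding Ets factor, known from lymphocytes, endothelium and invasive tumours, and held 46 of the 136 peaks at the 10 genes. The lines shared HA at 3 sites inside the gene. At the site 113693 bp from the lower end (32749781 to 32750126) HA had folds of 18.0 in M00002, the 97.4th percentile, and 12.2 in M00001, the 96.3rd. p65 had 16.1 and ac647 6.62 there, p300 had 3.94, and polymerase had no peak.

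At the middle site of Ets1, 84902 bp from that end, the HA folds were 16.7 in M00002 (32720843 to 32721303) and 8.44 in M00001 (32720808 to 32721396). H3K27ac with ac647 spanned 2200 bp there (32719689 to 32721888), the 99.7th percentile of widths in its list, and p300 spanned 1073 bp, the 98.7th. Cbp (4.31), S2 (3.96) and S5 (4.69) lay in the same stretch, and a second HA peak of M00002 with a fold of 10.3 stood beside the first. At the site 59527 bp from the lower end HA had 9.84 in M00002 and 5.12 in M00001, with Cbp at 3.89, p300 at 4.49 and S2 at 6.50. All 7 antibody lists other than HA and IgG had a peak over the HA peak at both of these sites. H3K27ac of both antibodies also lay just past the upper end of Ets1, with 4.35 for ac4729 and 4.36 for ac647. Around the lower end of Ets1 itself no peak of any list lay within 5 kb, the nearest being a p65 peak 18441 bp inside with −log10 q of 0.647. That end is the outermost RefSeq end. Ets1 had no promoter entry and other transcript starts were not used, so a site inside the gene may lie at a start. Between these sites each line also had HA without an overlapping HA peak in the other. In M00002 such a peak at 32714584 to 32714751 had a fold of 10.3, the 87.1st percentile, with p65 (3.72) over it. The second HA peak of the middle site (32720239 to 32720479), with p65 (8.43) over it, was another. A weaker one farther up had 3.60. In M00001 the peak at 32711236 to 32711445 had 4.26. A further shared HA site lay 13371 bp past the upper end, with 14.8 in M00002 and 9.24 in M00001.

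Ets2 (chromosome 16, 95702407 to 95721049, plus strand), the close paralogue of Ets1, had no HA within 5 kb. H3K27ac with ac4729 (fold 4.67), S5 (4.37) and S2 (3.16) lay at its start. A shared HA site lay 7829 bp past its downstream end, with 17.5 in M00002 (95728878 to 95729202), the 97.1st percentile, and 5.22 in M00001, the 63.4th. p65 with 8.69, ac4729 with 5.08, p300 with 3.81 and Cbp with 3.76 were present at the same site, and polymerase was not. The HA summits of the lines were 5 bp apart. With the window at 25 kb HA in both lines therefore counted 7 of 10 genes, against 32.6% of all genes, and a shared site 7 of 10, against 24.9%. In that window HA of M00002 lay at 10 of 10, against 66.6%, HA of M00001 at 7 of 10, against 35.6%, and p65 at 10 of 10, against 48.4%. p300 lay at 8 of 10, against 25%, and Cbp at 5 of 10, against 22.4%.

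**Figure D4:**
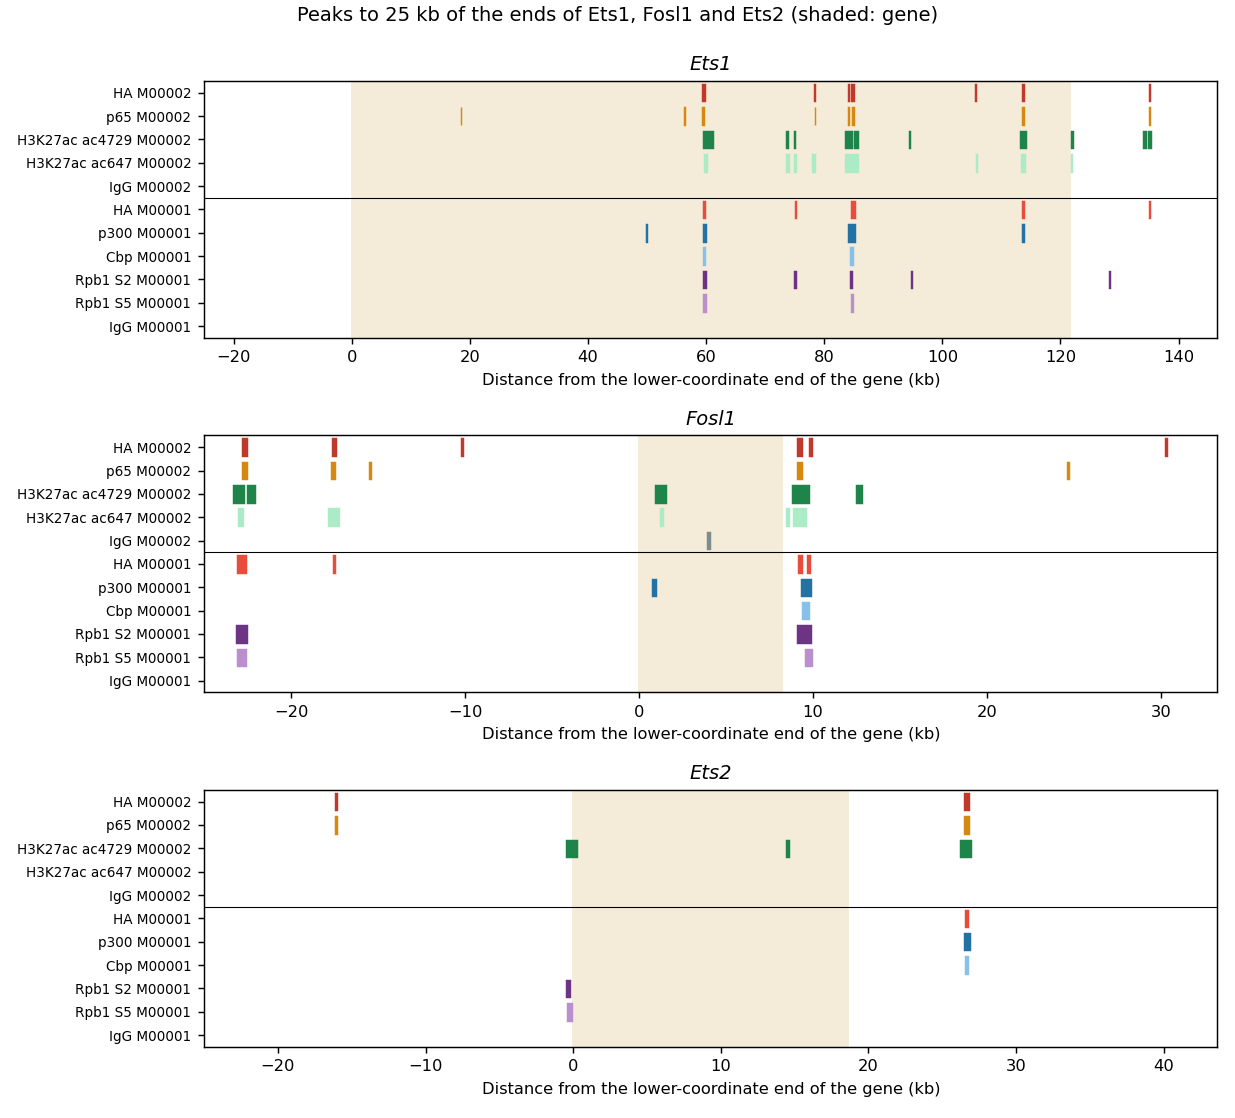
Peaks of the 11 lists out to 25 kb on both sides of Ets1, Fosl1 and Ets2 (shaded), with distance in kb from the end of the gene with the lower coordinate. The HA sites shared by the lines stand inside Ets1 at 59527, 84902 and 113693 bp, on both sides of Fosl1, past the upper end of Ets1, and past the downstream end of Ets2.

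Egr1 (chromosome 18, 34861207 to 34864956), a zinc finger factor induced by growth factors and neuronal activity, had all 9 antibody lists other than IgG within 5 kb. They met at 1 site below its lower end. HA had 15.3 in M00002 (34860805 to 34861105), the 95.3rd percentile, and 10.2 in M00001 (34860484 to 34861127), the 93.0th. p65 had 12.0 and its summit fell on that of HA of M00002. p300 reached 6.29, the 92.1st percentile and the highest p300 fold at the 10 genes, and Cbp 3.70. S5 spanned 1151 bp, the 99.3rd percentile of widths, with −log10 q of 31.9. H3K27ac was at 4.42 with ac4729 and 4.20 with ac647. Past the other end a weak HA pair had folds of 3.87 in M00002 and 3.80 in M00001, with −log10 q of 1.54 and 1.32. Shared HA sites also lay 19638 bp below the gene, with 16.7 in M00002 and 6.96 in M00001, and 19745 bp above it, with 11.6 in M00002 and 6.62 in M00001.

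Across the 6 genes with HA in both lines, 10 pairs of HA peaks overlapped each other. Their summits lay a median of 41.0 bp apart, against 35.0 bp over 4513 such pairs in the whole series, and 6 of 10 lay within 50 bp, against 60.5%. The median within-list percentile of these pairs was 95.2 in M00002 and 88.1 in M00001, against 86.0 and 69.0 in the series. p65 covered 8 of the 10 pairs, against 84.1% of pairs in the series, and H3K27ac of both antibodies 6 of 10, against 54.6%. Singly, ac4729 covered 8 of 10, against 79.1%, and ac647 6 of 10, against 57.5%. These shares were near those of the series. p300 covered 7 of 10, against 25.4%, Cbp 4 of 10, against 11.5%, S5 7 of 10, against 37.4%, and S2 8 of 10, against 58.0%. p300 or Cbp covered 7 of 10, against 29.2%. The pairs come from 6 genes and neighbouring pairs share broad peaks, so they are not independent, and these differences were not tested.

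Peak by peak, 13 of the 24 HA peaks of M00002 at these genes overlapped p65, against 32.8% in the series. Of the same 24, 12 overlapped ac4729, against 36.4%, 9 ac647, against 20.9%, and 10 of 24 HA of M00001, against 15.5%. Of the 15 p65 peaks, 12 overlapped HA, against 64.0%. In M00001 10 of 11 HA peaks overlapped HA of M00002, against 52.3%, 7 of 11 p300, against 20.0%, and 9 of 11 S2, against 40.9%. Cbp overlapped 4 of 11, against 13.6%, and S5 7 of 11, against 27.1%. Of the 10 p300 peaks 6 overlapped HA, against 28.2%, and 7 S5, against 43.3%. All 4 Cbp peaks overlapped HA (19.8% in the series) and p300 (25.1%).

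The other genes of these pathways were taken from 4 lists, which overlap each other and include members. Without the 10 members they hold 72 genes, and 26 of them (36.1%) had HA in both lines, against 19.9% of all genes. In the AP-1 family 9 of 17 genes had HA in both lines, against the same 19.9%, the non-members being Mafk, Batf, Mafg, Jdp2 and Atf2. Mafk, a small Maf protein, had HA folds of 20.1 in M00002 and 11.1 in M00001 and a peak in all 9 antibody lists other than IgG. Batf, an AP-1 factor of lymphocytes, had 14.5 and 7.63, and Mafg 13.9 and 7.22. Jdp2 had 5.64 and 4.77. Atf2 had 3.71 in M00002 and 10.4 in M00001 with no HA site shared by the lines, and an IgG peak of M00002 lay in its window.

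In the Ets family 6 of 20 genes had HA in both lines, against 19.9% of all genes. Etv5, a factor downstream of FGF signalling, led them with folds of 22.0 in M00002 and 9.22 in M00001 and all 9 antibody lists other than IgG. Elf2 (12.7 and 6.81), Elk4 (11.5 and 5.97), Fli1 (6.6 and 3.98) and Elk3 (5.48 and 3.92) followed. Elk3 also had an IgG peak of M00002 in its window.

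Of the 38 immediate early genes 16 had HA in both lines, against 19.9% of all genes, 28 had p65, against 33.1%, and 33 had S5, against 33.6%. Ier5 had 21.5 in M00002 and 13.6 in M00001, Srf, the serum response factor that drives Fos and Egr1, 20.0 and 11.3, and Ier2 14.3 and 12.5. Zfp36, which encodes an mRNA decay factor, had 16.8 and 8.43, Gadd45b 11.3 and 9.67, and Plk3 17.9 and 5.64. An IgG peak of M00002 lay in the window of Ier2. In the MAP kinase cascade the count was 4 of 13, against 19.9% of all genes, among them Mapk8, the kinase JNK1 that phosphorylates Jun, at 16.2 and 12.3, Map2k2 at 7.19 and 5.47, and Mapk10 at 3.74 and 3.98. Mapk8 had an IgG peak of M00002 in its window, and at Mapk10 the lines shared no HA site.

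By presence or absence of a peak over the 11 lists, Atf7 had the same pattern as Fos (11 of 11 lists), followed by Csrnp1 and Gabpa (10 of 11 each), among those 72 genes. For Jun and Ets1 several genes tied.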

How the data were processed

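Peaks were called by the authors per library, not on pooled samples. Per the submitters' processing notes the tools were deepTools, MACS2, Bowtie2 2.3.5.1, FastQC and Trim Galore, on build mm10. Their settings, and any control in calling, are not given in the sources used here. For every peak the authors deposited a summit offset, a score, −log10 of the p-value and of the q-value, and the fold, which is a ratio of summit signal to background. The smallest −log10 p was 3. Names of 2 lists, HA and p65 of M00002, include 120 bp, with no meaning given; their median peak widths were 116 and 119 bp, against 165 to 452 bp in the other lists.

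Gene coordinates were those of RefSeq GRCm38.p6. Peaks that overlap IgG of the same line by 1 bp were left out of counts of genes. Counts were set beside the same count over all protein-coding genes. Overlap code was tested on simulated data. Python 3.11.15 and pandas 2.3.3 were used. The members, gene lists and settings were chosen with earlier results of these data known. All 10 genes were named with their strongest peaks, as were up to 6 other genes per list, by mean HA percentile in both lines; 1 of these is not reported here. Alternatives were windows of 1 kb, 25 kb or gene ends alone, −log10 q of at least 2 or 5, the 2000 strongest peaks, IgG of either line removed, IgG overlap kept, and 50% overlap.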

Additional observations from a re-analysis of the deposited data

How the results depend on the processing

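Of 111 recomputed counts 90 stayed within 1.5 times the reported one. HA in both lines and the shared HA site were among them under all 9 alternatives, at 5 to 7 genes. Some of the 90 could not have changed. At the members 0 of 134 peaks overlapped IgG, so the IgG alternatives could not alter the member counts. Among member counts the alternative overlap share could act only on the shared HA site. Counts that an alternative could not alter say nothing about stability. With the 2000 strongest peaks HA of M00002 was at 5 genes (6.88% of all genes), p65 at 5 (6.75%), H3K27ac of both antibodies at 0 (1.83%), p300 at 2 (5.48%), Cbp at 1 (4.39%), S2 at 0 (10.4%), S5 at 1 (8.87%), IgG of M00002 at 0 (3.74%) and HA in both lines at 9 of the 72 other pathway genes (4.22%). S2 and S5 at the members were then at or near the share of all genes. With −log10 q of at least 5 the counts were 3 for H3K27ac (11.8%), 0 for Cbp (1.18%), 2 for p300 (2.50%), 5 for S2 (41.5%), 4 for S5 (11%), 0 for IgG of M00002 (1.22%) and 13 for the other pathway genes (8.58%). With −log10 q of at least 2 Cbp was at 1 (3.80%), p300 at 3 (8.52%) and IgG of M00002 at 0 (2.25%). IgG of M00002 was at 1 (9.42%) with the 1 kb window, and Cbp at 5 (22.4%) with 25 kb. The stricter limits leave fewer peaks by construction. Of 344 values for single genes and lists 287 stayed, and 5 of 128 strongest HA folds changed, each with another gene window. A rank limit keeps the strongest peak or none, and the IgG alternatives could not act on these peaks. Genes left without HA are not among the 128. These were Fos with −log10 q of at least 5, Fos, Fosl2, Jund and Atf3 in M00002 with the 2000 strongest peaks, and Ets1 in both lines with gene ends alone. No paired analysis was possible because every target had 1 library per line. Read depth is unknown, so a missing peak does not show that a target is absent.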
